A study of Rattus norvegicus with 39 samples.

Results

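Cytosolic ribosomal protein genes encode the proteins of the 40S and 60S ribosomal subunits. They were taken here as the probe sets of the array whose single annotated gene symbol began with Rpl or Rps and a number or with Rplp and a number, or was Rpsa, leaving out the S6 kinase genes. This gave 50 probe sets for 44 genes among 15866 probe sets tested, and each gene was represented by its probe set of the highest mean over the 39 arrays. The 44 members were 12 small subunit genes, 28 large subunit genes and 4 paralogs (Rpl3l, Rpl7l1, Rps27l and Rps4y2). A further 34 probe sets listed a ribosomal protein symbol beside other symbols and were no members. Genes such as Rplp1, Rplp2, Rps27a and Rps4x had no single-symbol probe set and were not analysed here.

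Sprague Dawley rats aged 8 weeks received alpha-naphthyl isothiocyanate (ANIT), a compound that injures bile duct epithelium in rodents, dissolved in corn oil (50 mg per kg). Vehicle rats received the oil only (10 ml per kg). Bile duct or hepatocytes were taken from liver by laser capture microdissection at 2 or 6 h, and the RNA was amplified and hybridised to Affymetrix rat arrays. The 8 groups were ANIT bile duct, vehicle bile duct, ANIT hepatocytes and vehicle hepatocytes at each time, with 5 arrays each except for vehicle bile duct at 6 h, which had 4. The labels call the arrays of a group biological replicates. They do not say whether a bile duct and a hepatocyte array came from 1 rat.

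A ribosome carries 1 copy of most of these proteins, and the cell makes them in matched amounts. Their mRNAs start with a run of pyrimidines, the terminal oligopyrimidine tract, through which the kinase complex mTORC1 sets how much of the mRNA is translated. Liver makes large amounts of secreted protein and devotes much of its RNA to ribosomes. A change in mRNA level is therefore only a part of how the supply of these proteins is set.

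Levels below are the deposited log2 probe set values. Such a value can be compared between arrays for 1 probe set, but not between probe sets as an amount of mRNA. In captured tissue, fewer cells of a type and less RNA per cell cannot be told apart. For 39 members the mean was at least 7, with a gap in the means between 6.54 (Rpl7l1) and 7.99 (Rpl14), and these are called bright below. That level was chosen after the values were seen. The other 5 were Rpl3l, Rps4y2, Rpl30, Rpl39 and Rpl7l1. The low value of Rpl30 and Rpl39, both large subunit proteins, is that of their only single-symbol probe set.

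Cholangiocyte markers were higher on every bile duct array than on any hepatocyte array, and hepatocyte markers were lower, but some bile duct arrays held much hepatocyte signal. The mean of 14 measured cholangiocyte markers ran from 7.61 to 9.03 in ANIT bile duct at 2 h, from 8.41 to 8.81 in ANIT bile duct at 6 h, from 8.68 to 9.07 in vehicle bile duct at 2 h and from 7.35 to 8.27 in vehicle bile duct at 6 h, against 4.70 to 5.14 over the hepatocyte arrays. Hepatocyte markers (16 measured) were present in bile duct captures at varied levels, with means of 5.68 to 7.98 in ANIT at 2 h, 4.38 to 8.40 in ANIT at 6 h, 4.85 to 7.31 in vehicle at 2 h and 5.17 to 9.57 in vehicle at 6 h. Hepatocyte arrays had 10.9 to 11.4. On vehicle bile duct arrays 1 and 3 at 6 h the hepatocyte mean (8.41 and 9.57) was above the cholangiocyte mean (8.27 and 7.35). Group means of macrophage markers were 5.5 to 5.9 in bile duct and 6.3 to 6.6 in hepatocytes. Endothelial markers had 5.1 to 5.3 and 5.9 to 6.2, fibroblast and smooth muscle markers 4.9 to 5.1 and 4.2 to 4.3, and lymphocyte markers 2.9 to 3.5 and 2.7 to 2.8. Some bile duct arrays stood apart in spread. The SD over all probe sets was 1.76 and 1.88 on ANIT arrays 2 and 4 at 2 h and 1.68 to 1.88 on the 4 vehicle arrays at 6 h, against 1.95 to 2.18 on the other 13 bile duct arrays and 2.22 to 2.37 on hepatocyte arrays. The 3' beta-actin control, which follows both RNA quality and the actin mRNA level, was low on the same arrays. It was 7.07 and 7.66 on ANIT arrays 2 and 4 at 2 h and 6.98 to 8.78 on the vehicle arrays at 6 h, against 8.25 to 10.24 on the other 13.

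Bright member levels followed that split within bile duct captures. Their median per array was 10.95, 10.31, 10.80, 10.51 and 11.04 in ANIT bile duct at 2 h, against 10.96, 10.87, 11.10, 11.12 and 10.97 in vehicle bile duct at 2 h. At 6 h it was 10.85, 10.92, 10.92, 10.84 and 10.90 in ANIT bile duct, against 10.45, 10.45, 10.55 and 10.82 in vehicle bile duct. The lowest ANIT values at 2 h were on the 2 arrays of small spread, and at 6 h every ANIT array lay above every vehicle array. In hepatocytes the array medians ran from 10.28 to 10.52 in ANIT and from 10.23 to 10.45 in vehicle. For some comparisons array spread was entered as a covariate or arrays were left out, with values given beside those results. In bile duct at 6 h the array SD was 1.68 to 1.88 with vehicle and 1.95 to 2.06 with ANIT. These ranges do not overlap, so a spread covariate there cannot tell spread from treatment.

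**Figure D1:**
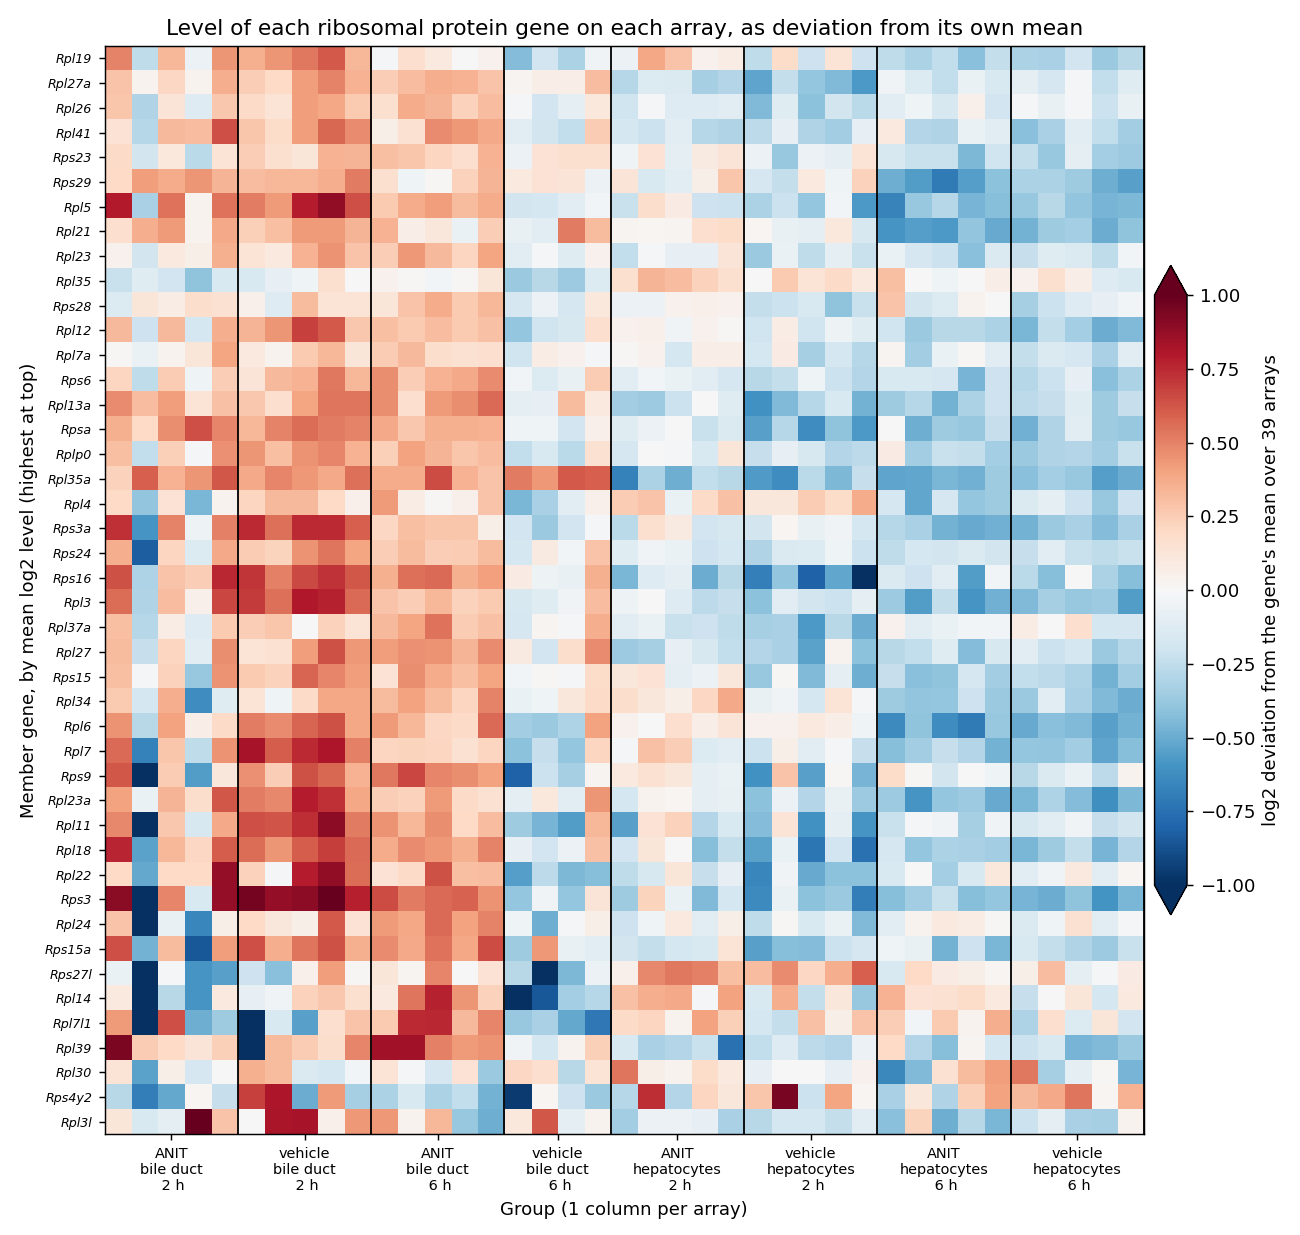
Log2 level of each of the 44 members (rows, by mean level) on each of 39 arrays (columns, by group), as the deviation from the gene's own mean, from blue (below) to red (above), with colours ending at 1 in each direction. Most rows are red in bile duct and blue in hepatocytes, ANIT bile duct array 2 at 2 h and the vehicle bile duct arrays at 6 h are blue or pale in many rows, and Rpl35a is red on all 19 bile duct arrays.

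**Figure D2:**
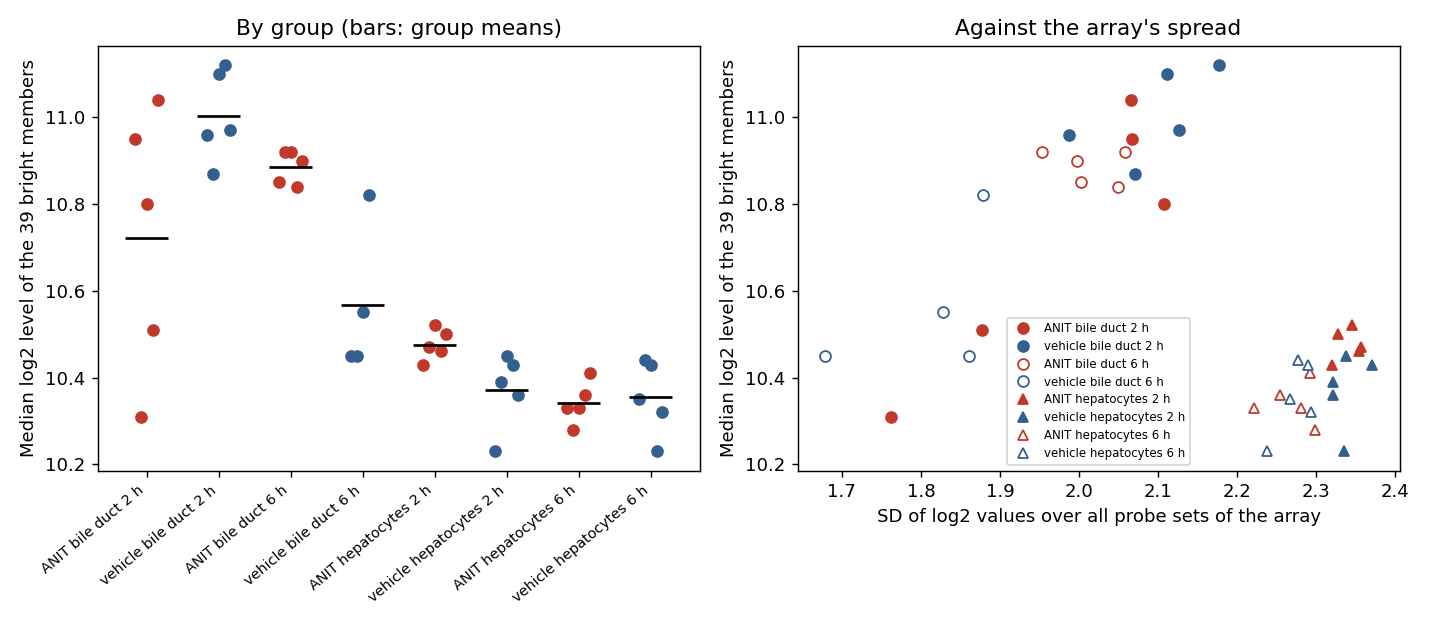
Median log2 level of the 39 bright members on each array, by group (left, points are arrays and bars are group means) and against the SD of all probe sets of the array (right, circles for bile duct, triangles for hepatocytes, filled at 2 h, open at 6 h). Bile duct arrays with an SD under 1.9 hold the lower bile duct medians, apart from vehicle array 4 at 6 h with 10.82.

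ANIT against vehicle in bile duct at 2 h asks for the early response in the tissue that ANIT injures. No member passed the test. The median difference of the 44 members, ANIT minus vehicle, was -0.27, against 0.03 over all probe sets, and 41 members were below 0. The 883 probe sets as bright as the bright members had a median of -0.22. In limma 0 of 44 members were called at an adjusted p under 0.05, against 1.12% of all probe sets, and 2 had an unadjusted p under 0.05, against 16.9% of all.

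The smallest p-values belonged to large subunit genes. Rpl11, which with Rpl5 and the 5S RNA can bind the p53 regulator Mdm2, had 10.46, 8.41, 10.25, 9.82 and 10.36 in ANIT bile duct at 2 h, against 10.63, 10.61, 10.72, 10.88 and 10.50 in vehicle bile duct. The groups did not overlap, and ANIT array 2 was far below the rest. The difference was -0.81 ± 0.34 (SE, adjusted p = 0.245 in limma). It was the only member with all ANIT arrays below all vehicle arrays, or 2.27% of members, against 3.01% of all probe sets. Rpl7 had 10.72, 9.48, 10.43, 9.90 and 10.60 in ANIT, against 10.98, 10.76, 10.90, 10.96 and 10.66 in vehicle, with a difference of -0.63 ± 0.26 (SE, adjusted p = 0.242 in limma). The small subunit gene Rps3, whose protein sits where mRNA enters the ribosome, differed by -0.81 ± 0.39 (SE, adjusted p = 0.303 in limma), and its ANIT values ran from 7.84 to 10.33. Without ANIT arrays 2 and 4 the member median was -0.07, and with array spread as a covariate it was also -0.07. On the upper side Rpl39, Rpl7l1 and Rpl35a differed by 0.32 ± 0.30, 0.16 ± 0.37 and 0.00 ± 0.20 (SE).

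ANIT against vehicle in bile duct at 6 h gave 2 members higher and none lower in limma, while the authors' deposited table, given below, also held 1 member lower. Rpl14, a large subunit protein, had 8.09, 8.52, 8.76, 8.43 and 8.22 in ANIT bile duct, against 6.77, 7.14, 7.65 and 7.70 in vehicle bile duct. No arrays of the groups overlapped. It was 2.13-fold higher, at 1.09 ± 0.30 on the log2 scale (SE, adjusted p = 0.0406 in limma). Rpl7l1, a paralog of the large subunit gene Rpl7, had 6.80, 7.28, 7.29, 6.86 and 7.02 in ANIT, against 6.16, 6.21, 6.02 and 5.82 in vehicle. Again every ANIT array was above every vehicle array, and the difference was 1.00 ± 0.27 (SE, adjusted p = 0.0376 in limma). Its parent Rpl7 had 10.37, 10.38, 10.37, 10.31 and 10.37 in ANIT, against 9.74, 9.92, 9.77 and 10.37 in vehicle, and was not called.

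These 2 calls were 4.55% of the members, against 5.17% of all probe sets called higher and 1.34% called lower. In 22 members every ANIT array was above every vehicle array, or 50%, against 8.33% of all probe sets and 30.1% of the 883 equally bright ones. The median difference was 0.37 over the members, 0.33 over the equally bright probe sets and -0.05 over all. The 12 bright small subunit genes had a median of 0.37 and the 26 bright large subunit genes 0.36. The members with the smallest p on the lower side were Rpl3l, Rpl35a and Rpl30, at -0.18 ± 0.30, -0.14 ± 0.26 and -0.11 ± 0.27 (SE). The 3' beta-actin control of the array ran from 8.25 to 8.94 on the ANIT arrays, against 6.98 to 8.78 on the vehicle arrays, and each array's mean correlation with the others of its group from 0.925 to 0.937, against 0.845 to 0.879. Their part in these differences was not tested. Without vehicle array 4 there was 1 call, and without any other single array there was 0. The vehicle bile duct arrays at 6 h also enter the comparisons of the captures and of the times below. With a further quantile normalization the count was 0 and the median 0.15, with array spread as a covariate 0 and 0.27, and with the mean hepatocyte marker level as a covariate 0 and 0.33. The second probe set of Rpl14 had a low mean of 3.77 over the 39 arrays. It differed by 0.21 (adjusted p = 0.761 in limma), and at that level it cannot decide on the call. The second probe set of Rpl7l1, with a mean of 6.13, was also higher (1.10, adjusted p = 0.0474 in limma). The authors' deposited table for this comparison differed from these calls. At p under 0.05 the authors' deposited table had 7 members higher and 6 lower, against 12.4% of all probe sets in either direction, and the member median was 0.02, against the 0.37 given above. After Benjamini-Hochberg adjustment of the authors' deposited p-values 3 members were left. In the authors' deposited table these were Rpl35a, 1.59-fold lower with ANIT and the smallest of the members at an adjusted p of 6.2e-09, Rpl7l1, 1.89-fold higher at 0.00259, and Rpl22, 1.33-fold higher at 0.0289. Rpl14 was 1.85-fold higher in the authors' deposited table and was not left after adjustment, at 0.0678. In the deposited array values Rpl35a averaged 11.18 in ANIT bile duct and 11.32 in vehicle bile duct, and the groups overlapped.

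**Figure D3:**
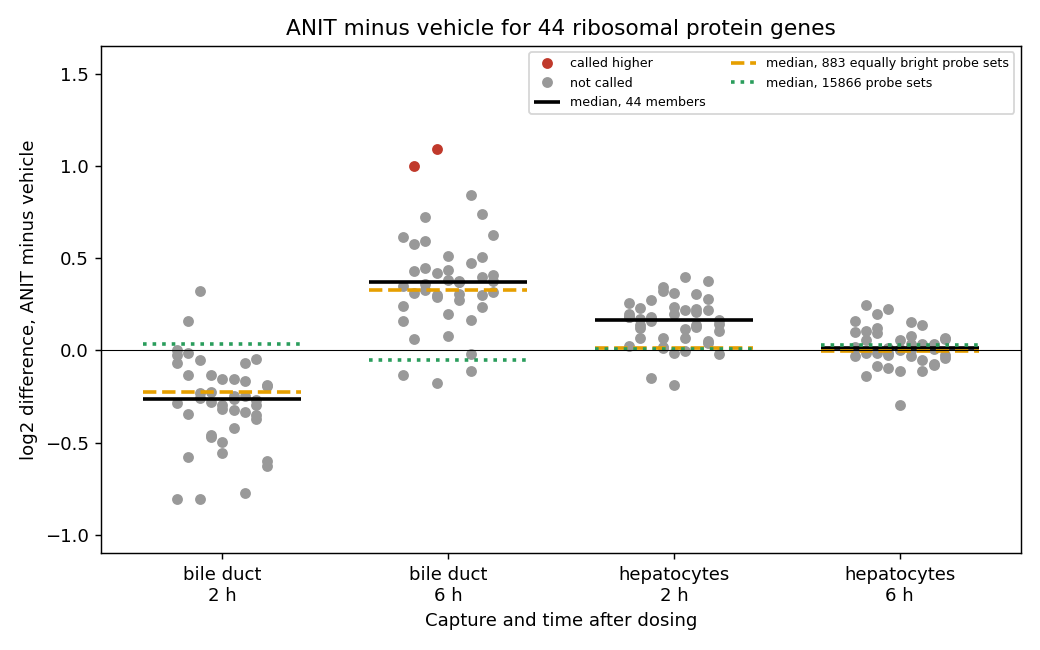
Log2 difference of ANIT minus vehicle for the 44 members in each capture and time (points, red where called higher, grey where not called), with the medians of the members (black), of 883 equally bright probe sets (dashed) and of all 15866 (dotted). Members sit below 0 in bile duct at 2 h and above 0 at 6 h, near the dashed line both times, while in hepatocytes at 2 h their median of 0.17 is above the dashed line at 0.01.

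In hepatocytes at 2 h most members had small positive differences with ANIT, and none passed the test. Rpsa, a small subunit protein also known as a laminin receptor precursor, had 10.71, 10.77, 10.83, 10.61 and 10.69 in ANIT hepatocytes, against 10.29, 10.55, 10.21, 10.43 and 10.26 in vehicle hepatocytes. The groups did not overlap, and the difference was 0.37 ± 0.09 (SE, adjusted p = 0.492 in limma). Rps28, also of the small subunit, had 10.83, 10.83, 10.93, 10.94 and 10.93 in ANIT, against 10.65, 10.67, 10.73, 10.48 and 10.66 in vehicle, with a difference of 0.25 ± 0.08 (SE, adjusted p = 0.523 in limma). Rps16, whose tail touches the tRNA in the ribosome, differed by 0.40 ± 0.13 (SE, adjusted p = 0.534 in limma), and its groups overlapped.

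The median difference of the members was 0.17, against 0.01 over all probe sets and 0.01 over the equally bright ones, and 39 of 44 were above 0. In limma 0 of 44 members and 0% of all probe sets were called, while 10 members had an unadjusted p under 0.05, or 22.7%, against 7.53% of all. In 3 members every ANIT array was above every vehicle array, or 6.82%, against 0.561% of all probe sets. On the lower side Rpl39, Rps4y2 and Rpl4 differed by -0.15 ± 0.11, -0.19 ± 0.23 and -0.02 ± 0.09 (SE). The 34 probe sets with several symbols had a median of 0.19, and 34 of 34 were above 0. In the authors' deposited table, 12 of the 44 members had p under 0.05, all of them higher, against 0.756% of all probe sets. The smallest p of a member in the authors' deposited table was that of Rpsa, 1.77e-09, with a 1.45-fold difference. Rpsa was the only member left after Benjamini-Hochberg adjustment of the authors' deposited p-values, at 2.81e-05.

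In hepatocytes at 6 h the member median was 0.01, against 0.03 over all probe sets, and 27 of 44 were above 0. In limma 0 of 44 members and 0% of all probe sets were called, and 0 members had an unadjusted p under 0.05, against 8.1% of all. Rpl14 (0.22 ± 0.12), Rpl7l1 (0.25 ± 0.13) and Rpl39 (0.20 ± 0.14) had the smallest p on the upper side, and Rps4y2 (-0.29 ± 0.16), Rps29 (-0.14 ± 0.11) and Rpl21 (-0.11 ± 0.11) on the lower side (SE).

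Whether ANIT acted differently in bile duct and hepatocytes was tested by interaction. At 2 h, 0 of 44 members were called, against 1.02% of all probe sets, with a median interaction of -0.41 over members and 0.03 over all. Of the members 15 had an unadjusted p under 0.05, or 34.1%, against 15.2% of all, with Rpl7 (-0.79 ± 0.28), Rps16 (-0.72 ± 0.26) and Rpl14 (-0.82 ± 0.29) smallest (SE). At 6 h 1 member was called, or 2.27%, against 5.21% of all probe sets called higher. This was Rpl22, a large subunit protein without which mice are viable. Rpl22 had 9.66, 9.70, 10.15, 9.81 and 9.82 in ANIT bile duct, against 8.96, 9.25, 9.06 and 9.09 in vehicle bile duct. In hepatocytes it had 9.36, 9.51, 9.17, 9.36 and 9.62 with ANIT, against 9.41, 9.48, 9.61, 9.40 and 9.53 with vehicle. Only the bile duct groups did not overlap, and the interaction was 0.82 ± 0.24 (SE, adjusted p = 0.0383 in limma). It missed the threshold once the fit held array spread or the level of hepatocyte markers, and leaving out single arrays gave counts of 0 to 6 (6 without vehicle bile duct array 4).

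The change of the ANIT effect between 2 and 6 h in bile duct was called for 1 member, or 2.27%, against 2.42% of all probe sets called higher. Rpl14 had 8.09, 6.84, 7.71, 7.40 and 8.09 in ANIT bile duct at 2 h, against 7.91, 7.95, 8.22, 8.26 and 8.15 in vehicle bile duct at 2 h, besides the 6 h values above. The effect at 6 h minus that at 2 h was 1.56 ± 0.39 (SE, adjusted p = 0.0333 in limma), and it was not called without ANIT arrays 2 and 4 of 2 h. With single arrays left out the count was 0 to 5 (5 without ANIT 2 h array 1). The median over members was 0.59, against 0.56 over equally bright probe sets and -0.03 over all. Rps9 (1.61 ± 0.50) and Rpl11 (1.42 ± 0.45) had larger or similar estimates that missed the threshold (SE, adjusted p = 0.0664 and 0.0693 in limma).

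Bile duct against hepatocytes gave the clearest differences of these genes. In vehicle rats at 2 h, 34 of 44 members were higher in bile duct and 1 was lower, or 77.3% higher, against 28.7% of all probe sets called higher and 39.1% of the equally bright ones. Rps3 had 10.38, 10.30, 10.32, 10.49 and 10.20 in bile duct, against 8.79, 9.36, 9.01, 9.05 and 8.73 in hepatocytes. It was 2.55-fold higher in bile duct, at 1.35 ± 0.15 (SE, adjusted p = 3.7e-06 in limma). Rps16 had 11.15, 10.94, 11.10, 11.16 and 11.06 in bile duct, against 9.75, 10.04, 9.63, 9.92 and 9.41 in hepatocytes, and was 2.52-fold higher. In both genes the lowest bile duct array stood clear of the highest hepatocyte array. The next 4 by size were Rpl18 (2.04-fold), Rpl11 (2.00-fold), Rpsa (1.95-fold) and Rpl5 (1.94-fold).

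In the same comparison 11 of 12 bright small subunit genes and 22 of 26 bright large subunit genes rose in bile duct, with medians of 0.70 and 0.59, against 0.16 over all probe sets. Rplp0, which anchors the stalk that recruits elongation factors, was 1.53-fold higher. Rps6, the target of the S6 kinases, was 1.46-fold higher, and Rpl13a was 1.71-fold higher. In 32 members the groups did not overlap, or 72.7%, against 21.5% of all probe sets. The 1 member called lower (2.27%, against 23.5% of all probe sets) was Rps27l (-0.42 ± 0.17, SE, adjusted p = 0.0479 in limma), a paralog that p53 induces in human and mouse cells. With a further quantile normalization its difference was 0.02, and it kept its call only without bile duct array 4 when single arrays were left out. Requiring 1.5-fold left 21 members.

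In ANIT rats at 6 h, on arrays not shared with the vehicle comparison, 32 of 44 members were higher in bile duct and none was lower, or 72.7%, against 25.8% of all probe sets called higher, 36.2% of the equally bright ones and 21.7% of all called lower. Of the 34 called higher at 2 h in vehicle rats and the 32 here, 28 were the same genes (82.4% and 87.5%). Rps3 had 10.08, 9.94, 9.99, 10.01 and 9.87 in bile duct, against 9.0, 9.08, 9.20, 9.0 and 9.04 in hepatocytes, and was 1.88-fold higher. Rpl6, a large subunit protein, had 10.60, 10.50, 10.38, 10.36 and 10.74 in bile duct, against 9.53, 9.77, 9.55, 9.46 and 9.79 in hepatocytes, and was 1.86-fold higher. In 35 members the groups did not overlap, or 79.5%, against 17.1% of all probe sets. The median was 0.53, against 0.21 over all. This comparison and the one in ANIT rats at 2 h were added after the values had been seen.

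The 2 comparisons that hold bile duct arrays of small spread gave fewer calls. In vehicle rats at 6 h, 4 members were higher (9.09%, against 29.3% of all probe sets) and 2 were lower (4.55%, against 24.4%), with a median of 0.24, against 0.23 over all. Higher were Rpl35a, Rpl21 (0.58 ± 0.21), Rpl23a (0.54 ± 0.20) and Rps29 (0.48 ± 0.19), and lower were Rps4y2 (-0.70 ± 0.24) and Rpl14 (-0.64 ± 0.24, SE). With a further quantile normalization 29 were higher and 1 lower, the median was 0.63, and Rpl14 was at 0.17, while subtracting each array's median gave 1 higher and 5 lower. Without hepatocyte array 2, 3 or 5 only Rpl35a was called. In ANIT rats at 2 h, 6 members were higher (13.6%, against 30.9% of all) and 3 were lower (6.82%, against 23.6%), with a median of 0.15. Higher were Rpl35a, Rpl39 (0.70 ± 0.20), Rps16 (0.61 ± 0.21), Rpsa (0.54 ± 0.16), Rpl13a (0.54 ± 0.16) and Rpl27a (0.42 ± 0.15), and lower were Rps27l (-1.002 ± 0.31), Rpl14 (-0.65 ± 0.24) and Rpl35 (-0.46 ± 0.15, SE). Without ANIT bile duct array 2, 15 were higher and 2 lower, without arrays 2 and 4 the counts were 23 and 2, and with a further quantile normalization 29 and 1.

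By rank within its array, the median bright member stood at percentile 99.3 to 99.5 of the probe sets on every bile duct array, ANIT or vehicle, and at percentile 98.4 to 98.8 on every hepatocyte array. These ranges did not overlap. The lowest bile duct values, 99.26, were those of vehicle arrays 1 and 3 at 6 h. Such a percentile is close to its upper end and also depends on how many other genes are abundant in each capture.

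Rpl35a was called in all 4 pairs of groups. This large subunit gene, mutated in some human families with Diamond-Blackfan anaemia, had 11.01, 11.38, 11.13, 11.22 and 11.40 in ANIT bile duct at 2 h, against 10.10, 10.46, 10.29, 10.53 and 10.50 in ANIT hepatocytes. At 2 h in vehicle rats it had 11.16, 11.27, 11.21, 11.16 and 11.33 in bile duct, against 10.21, 10.16, 10.51, 10.33 and 10.55 in hepatocytes. At 6 h in ANIT rats it had 11.15, 11.15, 11.43, 11.13 and 11.06 in bile duct, against 10.25, 10.26, 10.32, 10.30 and 10.42 in hepatocytes. At 6 h in vehicle rats it had 11.30, 11.21, 11.39 and 11.38 in bile duct, against 10.36, 10.44, 10.40, 10.23 and 10.28 in hepatocytes. No bile duct array of the 19 was as low as any of the 20 hepatocyte arrays. The differences were 0.85 ± 0.16, 0.87 ± 0.13, 0.87 ± 0.16 and 0.98 ± 0.19 (SE), in the order of these sentences, with adjusted p-values of 0.000763, 7.7e-05, 0.000356 and 0.000856 in limma. Under every alternative run the adjusted p was at most 0.016. No other member was called in all 4.

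**Figure D4:**
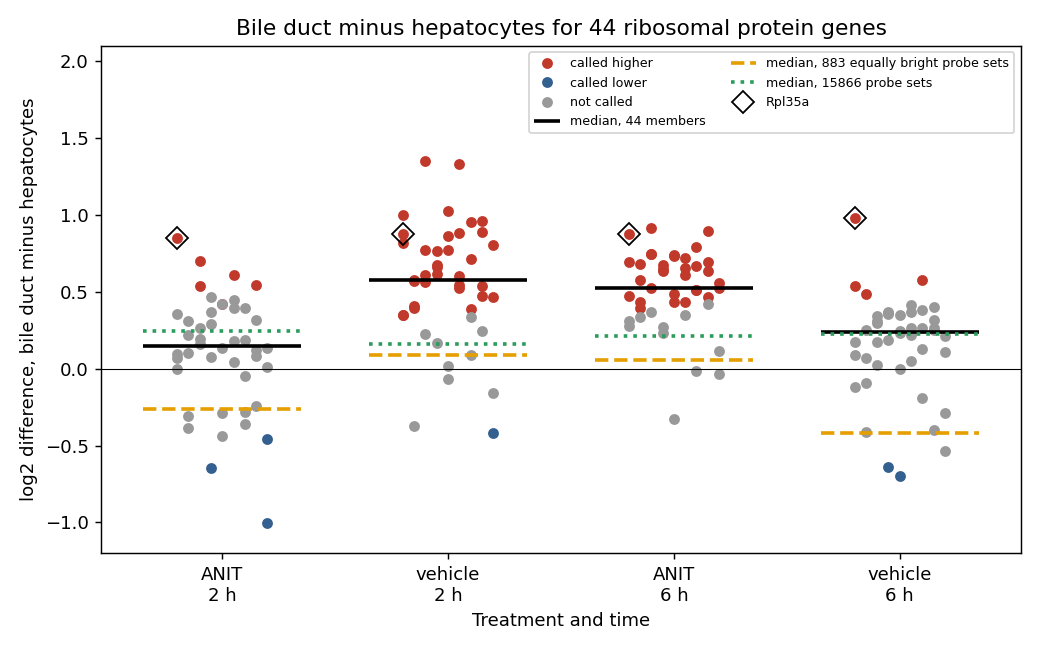
Log2 difference of bile duct minus hepatocytes for the 44 members in each treatment and time (points, red where called higher, blue where called lower, grey where not called), with the medians of the members (black), of 883 equally bright probe sets (dashed) and of all 15866 (dotted). The member median is above the dashed line in all 4, and Rpl35a (diamonds) stays between 0.85 and 0.98.

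Mitochondrial ribosomal protein genes were mostly lower in bile duct, and the difference between them and the cytosolic members was not tested. Of 71 measured mitochondrial ribosomal protein genes, whose ribosomes translate the mRNAs of the mitochondrial genome, 0 were higher and 54 lower in bile duct in vehicle rats at 2 h (76.1% lower, against 23.5% of all probe sets), with a median of -0.90, beside 34 members higher and 1 lower. At 6 h the counts were 0 and 59 (83.1% lower, against 24.4% of all), with a median of -1.21, beside 4 members higher and 2 lower. In ANIT rats they were 0 and 60 at 2 h (84.5% lower, against 23.6%), beside 6 members higher and 3 lower, and 1 and 54 at 6 h (76.1% lower, against 21.7%), beside 32 members higher and none lower. Examples at 2 h in vehicle rats were Mrpl15 (-2.35 ± 0.15), Mrps34 (-1.83 ± 0.14) and Mrpl16 (-2.05 ± 0.19, SE). Other genes with a terminal oligopyrimidine tract went with the members at 2 h in vehicle rats. Of 12 measured, 9 were higher and 0 lower, against 28.7% of all probe sets called higher and 23.5% called lower. The 9 included Hnrnpa1, an RNA-binding protein (3.45-fold), Rack1, which sits on the small subunit (2.21-fold), and the elongation factor subunit gene Eef1g (1.76-fold). At 6 h in vehicle rats 4 of these 12 were higher and 4 lower, against 29.3% of all probe sets called higher and 24.4% called lower.

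Ribosome biogenesis factors, which build the subunits in the nucleolus, were called with ANIT where the ribosomal proteins mostly were not. In bile duct at 6 h 10 of 21 were higher with ANIT and none lower, against 5.17% of all probe sets called higher and 1.34% lower. The list median was 1.27, beside 2 of 44 members called higher and a member median of 0.37. The vehicle arrays at 6 h are those of small spread. The smallest p-values were those of Nop58 (5.47-fold), Bysl (4.72-fold) and the methyltransferase gene Fbl (4.02-fold). Of these, Fbl and Nop58 were also lower at 6 h than at 2 h within vehicle bile duct. Their differences were -1.588 and -0.954 on the log2 scale (adjusted p = 0.0047 and 0.0347 in limma). Within ANIT bile duct the smallest p of the list between the times was that of Nop16 (1.13, adjusted p = 0.08 in limma). The part of the vehicle fall in the ANIT differences was not tested. With ANIT in bile duct at 2 h, 2 of 21 were higher, Rrp9 (2.57-fold) and Tsr1 (2.92-fold), against 1.12% of all probe sets called in either direction. The list median was 0.37, beside -0.27 for the members. This list was chosen with earlier results of these data known. The difference between the lists was not tested.

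Between 2 and 6 h, vehicle bile duct had 6 members lower at 6 h and none higher, or 13.6%, against 8.66% of all probe sets called lower, 5.38% called higher and 14.8% of the equally bright ones called lower. In 19 members every 6 h array was below every 2 h array, or 43.2%, against 9.35% of all probe sets and 28.2% of the equally bright ones. Rps3 had 9.04, 9.39, 9.04 and 9.55 at 6 h, against 10.38, 10.30, 10.32, 10.49 and 10.20 at 2 h. It fell by 1.08 ± 0.24 on the log2 scale (SE, adjusted p = 0.0138 in limma). The other 5 were Rpl11 (-0.95 ± 0.26), Rpl22 (-0.91 ± 0.26), Rpl7 (-0.90 ± 0.24), Rps3a (-0.87 ± 0.23) and Rpl5 (-0.78 ± 0.23, SE). The member median was -0.40 and that of equally bright probe sets -0.44. All of these 6 h arrays were of small spread, and hepatocyte markers had a higher median difference at 6 h (1.57). The 3' beta-actin control was 6.98 to 8.78 at 6 h, against 9.60 to 10.16 at 2 h, and each array's mean correlation with its group 0.845 to 0.879, against 0.943 to 0.963. Their part in the fall was not tested. With a further quantile normalization no member was called and the median was -0.12. The count was 1 to 11 with single arrays left out (1 without vehicle 2 h array 3, 4 or 5, and 11 without vehicle 6 h array 4). Only Rpl35a was above 0, at 0.09 ± 0.22 (SE). In ANIT bile duct 0 of 44 were called, against 1.41% of all probe sets, and the median was 0.17. There 4 members had an unadjusted p under 0.05 (9.09%, against 16.7% of all), with Rpl14, Rpl24 and Rps27l smallest, at 0.78 ± 0.29, 0.81 ± 0.30 and 0.79 ± 0.33 (SE).

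Between 2 and 6 h in hepatocytes, some members fell in both treatments. Their share was below that of equally bright probe sets in vehicle rats and near it in ANIT rats. A few rose in vehicle rats at a share near that of all probe sets. In vehicle rats 7 fell (15.9%, against 12.8% of all probe sets) and 4 rose (9.09%, against 9.44%), with a median of -0.05. In ANIT rats 11 fell (25%, against 10.4%) and none rose (0%, against 9.99%), with a median of -0.14. The ANIT comparison was added after the values had been seen, and the 2 comparisons shared no arrays. Equally bright probe sets were called lower in 22.5% of cases in vehicle rats and 21.6% in ANIT rats. Rpl6, Rpl4, Rpl21, Rps29, Rpl34 and Rpl7 fell in both, which was 6 of the 7 in vehicle rats and 6 of the 11 in ANIT rats. Over the 44 members the 2 sets of differences had a Pearson correlation of 0.82, and over all probe sets 0.77. The points shared the array platform and the normalization.

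Rpl6 had 9.53, 9.77, 9.55, 9.46 and 9.79 in ANIT hepatocytes at 6 h, against 10.21, 10.17, 10.34, 10.24 and 10.30 at 2 h. In vehicle hepatocytes it had 9.67, 9.75, 9.73, 9.63 and 9.70 at 6 h, against 10.21, 10.21, 10.27, 10.24 and 10.13 at 2 h. Neither pair overlapped, and the SDs were 0.05 in both vehicle groups. Rpl6 fell by 0.63 ± 0.11 in ANIT rats and by 0.52 ± 0.09 in vehicle rats on the log2 scale (SE, adjusted p = 0.00153 and 0.00175 in limma). Rpl21 had 10.33, 10.37, 10.35, 10.53 and 10.42 in ANIT hepatocytes at 6 h, against 10.95, 10.94, 10.95, 11.09 and 11.11 at 2 h. In vehicle hepatocytes it had 10.45, 10.57, 10.58, 10.43 and 10.52 at 6 h, against 10.94, 10.85, 10.83, 11.03 and 10.76 at 2 h. It fell by 0.61 ± 0.10 in ANIT rats and by 0.37 ± 0.10 in vehicle rats (SE, adjusted p = 0.00133 and 0.0155 in limma).

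Rps29, a small subunit protein with a zinc finger, fell by 0.59 ± 0.12 and 0.38 ± 0.12, and Rpl34 of the large subunit by 0.53 ± 0.11 and 0.32 ± 0.11 (SE, ANIT then vehicle rats). Rpl4, which lines the tunnel through which the new protein leaves, fell by 0.51 ± 0.12 and 0.41 ± 0.10, and Rpl7 by 0.41 ± 0.12 and 0.31 ± 0.10 (SE). The seventh in vehicle rats was Rps3a (-0.30 ± 0.10, SE). In ANIT rats the others were Rpl19 (-0.44 ± 0.11, SE), Rpl23a, Rpl5, Rps15 and Rpl12. With a further quantile normalization 3 of the 7 in vehicle rats and 6 of the 11 in ANIT rats fell, and subtracting each array's median left 3 in vehicle rats. Under both, 4 rose in vehicle rats. Without ANIT 2 h array 2, 7 fell in ANIT rats.

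The 4 that rose in vehicle rats were Rps16, Rpl37a, Rpl22 and Rpl27a. Rpl37a, a large subunit protein with a zinc finger, had 10.46, 10.39, 10.55, 10.21 and 10.22 in vehicle hepatocytes at 6 h, against 10.05, 10.06, 9.81, 10.11 and 9.89 at 2 h. The groups did not overlap, and the difference was 0.38 ± 0.11 (SE, adjusted p = 0.0245 in limma). Rps16 rose by 0.40 ± 0.13, Rpl22 by 0.38 ± 0.12 and Rpl27a by 0.30 ± 0.10 (SE), with overlapping groups in each. In ANIT hepatocytes these 4 had differences of 0.08, 0.14, 0.01 and 0.11 for Rps16, Rpl37a, Rpl22 and Rpl27a, and none was called. Whether vehicle and ANIT rats differed in this was not tested. Leaving out vehicle 2 h array 3 or 5, or vehicle 6 h array 1 or 3, ended all 4 calls.

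**Figure D5:**
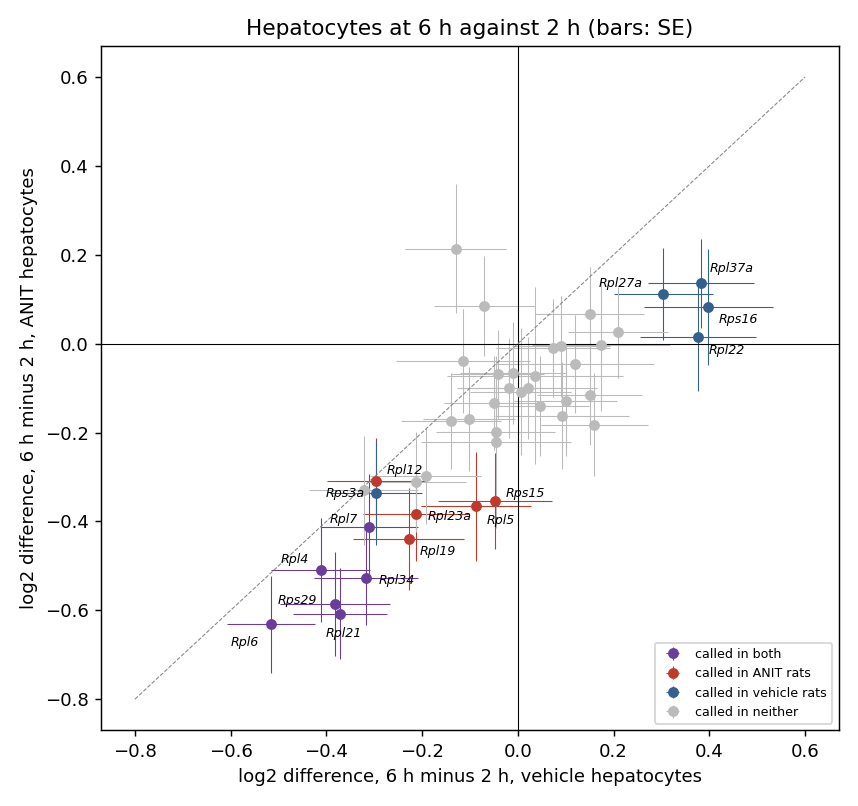
Log2 difference of 6 h minus 2 h in ANIT hepatocytes (y axis) and vehicle hepatocytes (x axis) for the 44 members (points, bars are SE, coloured by where they were called; the dashed line marks equal differences). Rpl6, Rpl21, Rps29, Rpl34, Rpl4 and Rpl7 lie low in both, and Rps16, Rpl37a, Rpl22 and Rpl27a lie at 0.30 to 0.40 in vehicle hepatocytes.

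The sequences around the start of most of these genes hold a pyrimidine tract. They come from RefSeq on the rat build GRCr8, which held 39 of the 44 members (37 by gene ID, 2 by symbol) as 250 bases before and 50 after the annotated start. The array values carry no coordinates. Shown are 60 bases, from 40 before to 20 after the start, on the strand of the gene, for members that fell at 6 h in hepatocytes of both treatments (Rpl6, Rpl4, Rpl21, Rpl34), for those that rose in vehicle hepatocytes (Rps16, Rpl22, Rpl27a, Rpl37a) and for Rpl35a. Rps29 and Rpl7 also fell in hepatocytes of both treatments, but they were among the members without a sequence. Capitals mark the longest tract that begins with C and goes on with at least 5 letters that are all C or T, within 25 bases of the start.
Rpl6, chr12:41011671-41011730, minus strand: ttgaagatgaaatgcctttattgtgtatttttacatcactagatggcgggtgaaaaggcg
Rpl4, chr8:73566437-73566496, plus strand: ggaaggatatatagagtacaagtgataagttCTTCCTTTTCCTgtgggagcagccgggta
Rpl21, chr12:13386134-13386193, minus strand: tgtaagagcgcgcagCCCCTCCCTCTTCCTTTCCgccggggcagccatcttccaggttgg
Rpl34, chr2:221962264-221962323, minus strand: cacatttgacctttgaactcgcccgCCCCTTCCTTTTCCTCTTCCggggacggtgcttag
Rps16, chr1:92770618-92770677, plus strand: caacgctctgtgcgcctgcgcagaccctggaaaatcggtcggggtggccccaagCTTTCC
Rpl22, chr5:168117921-168117980, plus strand: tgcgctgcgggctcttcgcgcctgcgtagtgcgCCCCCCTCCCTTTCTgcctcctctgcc
Rpl27a, chr1:172974533-172974592, plus strand: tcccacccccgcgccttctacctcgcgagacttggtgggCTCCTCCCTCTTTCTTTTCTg
Rpl37a, chr9:81748051-81748110, plus strand: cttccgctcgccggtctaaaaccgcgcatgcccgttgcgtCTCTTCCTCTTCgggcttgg
Rpl35a, chr11:81235002-81235061, minus strand: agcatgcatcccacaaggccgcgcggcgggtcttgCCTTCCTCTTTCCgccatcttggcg

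Of these 9, Rpl6 held no such tract near its annotated start, and the tract of Rps16 runs on past the bases shown. A tract in this window need not be the one that starts the mRNA. Counted from the annotated start, the tract of Rpl21 began at base -25 and had 19 bases, and that of Rps16 began at base 15. Those of Rpl27a and Rpl37a began at bases -1 and 1. The tract was present both in members that fell and in members that rose. Among the 39 members with a sequence, 31 (79.5%) held one on the gene's strand within 25 bases of the start, against 34.0% of 27457 genes with such a sequence. On the opposite strand the shares were 30.8% and 37.1%. The word CTTCCTTT, which lies within such tracts, was on the gene's strand in that window in 7 members (Rpl4, Rpl13a, Rpl21, Rpl23, Rpl34, Rps3 and Rps15, 17.9%), against 0.306% of all genes. Over the 300 bases and both strands, the ETS-type word CCGGAAG was in 23.1%, against 9.22% of all, the word GGGCGG in 61.5%, against 34.9%, and TATAAA in 15.4%, against 14.3%.

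Bright members varied together in bile duct more than in hepatocytes. With group means taken out, the median correlation between pairs of the 39 bright members was 0.60 over 19 bile duct arrays and 0.22 over 20 hepatocyte arrays. Pairs shared the arrays, so this is a description that includes any difference in array quality. The median SD within groups was 0.22 in bile duct and 0.13 in hepatocytes, and equally bright probe sets had 0.40 and 0.17. In bile duct the 5 members that varied most within groups were Rps9 (SD 0.57), Rps3 (0.55), Rpl7l1 (0.52), Rps27l (0.48) and Rpl11 (0.48). ANIT bile duct array 2 at 2 h was the lowest bile duct array in 4 of these 5, with 7.96 for Rps9, 7.84 for Rps3, 6.09 for Rps27l and 8.41 for Rpl11. For Rpl7l1 the lowest was vehicle array 1 at 2 h, with 5.14. The 5 that varied least were Rpl35, Rpsa, Rps29, Rpl27a and Rpl35a, with SDs of 0.10 to 0.12.

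The paralogs and their parents can be set side by side. Rpl3l, which in mice and humans is largely a gene of heart and skeletal muscle, had 1.92 to 3.70 over all arrays, near the low end of the scale, while its parent Rpl3 was called higher in bile duct in vehicle rats at 2 h (1.84-fold) and in ANIT rats at 6 h (1.64-fold). Rpl3l was also called in vehicle rats at 2 h (0.62 ± 0.18, SE, adjusted p = 0.0111 in limma). Rpl7l1 was called with ANIT in bile duct at 6 h, and Rpl7 was not, but the difference between the genes was not tested. Between the captures the Rpl7l1 probe set used here was not called. Its second probe set was lower in bile duct in vehicle rats at 2 h (-0.69) and 6 h (-0.90, adjusted p = 0.00814 and 0.0109 in limma). It was also lower in ANIT rats at 2 h (-1.12, adjusted p = 0.0359 in limma), but was not called at 6 h (-0.19). Rps27l was higher in no comparison and lower in bile duct in both 2 h comparisons of the captures. Rps4y2 had 2.41 to 4.31 and was lower in bile duct in vehicle rats at 6 h.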

How the data were processed

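The deposited values are log2 probe set levels of 39 arrays, made by the authors with RMA, per the submitters' processing notes; its version is not given in the sources used here. The authors' deposited comparison tables give a log10 ratio of ANIT over vehicle and a p-value per probe set, per the file headers, with replicates combined by the authors. The log10 ratios were turned into log2 here. The table held 15923 probe sets, of which 57 were controls of the array and were not used. Of the other 15866, 12783 had 1 symbol, 312 several and 2771 none listed in the platform annotation.

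Each comparison was fitted on its own arrays with limma 3.58.1 in R 4.3.3 (lmFit, eBayes), without a block, with Benjamini-Hochberg adjustment over 15866 probe sets. A member was called at an adjusted p under 0.05. Of the 15 comparisons 11 were planned and 4 among ANIT arrays were added after the values were seen. The p-values measure the spread between the arrays of a group, and the number of arrays limits the precision. Replicate numbers were not used to pair arrays, since none of the 12 comparisons of a pair of groups had every same-number correlation of deviations above 0.1. This rule cannot show that the captures came from different rats. Only the comparisons of bile duct with hepatocytes could hold arrays of the same rat, since treatment and time differ between rats. In vehicle rats the numbers in the array descriptions, apart from a leading digit, were the same in both captures. They were 51 to 55 at 2 h and 56 to 59 at 6 h.

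Members, lists and tests were chosen with earlier results of these data known. Named are up to 6 called members per direction with the largest change (with fewer than 2 called, the 3 with the smallest p), a set of members with known roles, the paralogs with their parents, and the 5 members that varied most and least within bile duct groups. For other lists up to 3 examples of smallest p are given. The fit was tested on simulated data. For ANIT in bile duct at 6 h it recovered 13% of differences of 1 on the log2 scale and 73% of those of 2. For the interaction with capture at 6 h the shares were 11% and 81%. They were 86% and 99% for ANIT in hepatocytes at 6 h, and 77% and 97% for the captures in vehicle rats at 2 h. These shares are over 15866 simulated probe sets and are not shares of the members. In bile duct the median SD within groups was 0.22 for bright members and 0.50 for all probe sets. A member not called in bile duct is not shown to be unchanged. Alternatives were other scalings, filters, variance models, blocks, covariates, probe set choices, a 1.5-fold minimum and leaving out arrays.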

Additional observations from a re-analysis of the deposited data

Results flagged for a closer look

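In groups of 4 or 5 arrays, 1 array stood far from the others in 22 of 352 combinations of gene and group (6.25%), by a test that chance passes in about 1 of 20. In ANIT bile duct these were Rpl39 at 2 h (array 1, 5.74) and, at 6 h, Rpl35a (array 3, 11.43), Rpl7 (array 4, 10.31), Rps27l (array 3, 8.51) and Rpsa (array 2, 11.1). In vehicle bile duct at 2 h they were Rpl24 (array 4, 9.94), Rpl39 (array 1, 3.7), Rps29 (array 5, 11.82) and Rpsa (array 1, 11.16). In vehicle bile duct at 6 h they were Rpl27a (array 4, 11.74), Rpl30 (array 3, 3.41), Rpl6 (array 4, 10.57) and Rps23 (array 1, 11.25). In ANIT hepatocytes at 2 h they were Rpl14 (array 4, 7.98), Rpl39 (array 5, 4.06), Rpl4 (array 3, 10.71), Rpl7a (array 3, 10.66) and Rps15a (array 5, 9.34). In ANIT hepatocytes at 6 h array 4 stood apart in Rpl34 (10.05), Rps23 (10.86) and Rps6 (10.37). In vehicle hepatocytes at 6 h it was Rps24 (array 2, 10.47).

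Rpl22 was called for a different ANIT effect in the captures at 6 h. Its interaction was 0.82 on the log2 scale (bile duct minus hepatocytes). This was 1 of 44 members, against 5.21% of all probe sets called higher, and the call was lost with either covariate. Rpl14 was called for a different ANIT effect at the times in bile duct, by 1.56 on the log2 scale (6 h minus 2 h). This was also 1 of 44 members, against 2.42% of all probe sets called higher. The call of Rpl14 was lost in 13 of 30 alternatives.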

How the results depend on the processing

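Over 114 calls of single members and 1955 combinations of call and alternative, 1542 kept their call, 411 lost it and 2 reversed. Both reversals came with a further quantile normalization, for Rps27l (0.0183, bile duct minus hepatocytes, vehicle, 2 h) and Rpl14 (0.17, the same at 6 h). The counts of members called moved as follows, and the cause was not tested. For ANIT in bile duct at 6 h (2 called), the count was 0 with quantile normalization, the replicate block, array SD or hepatocyte marker level as a covariate, or several-symbol probe sets, 1 with the mean of a gene's probe sets, 4 with probe sets above the median level, 12 with trend and robust variances, 15 in one fit of all 8 groups, and 0 to 1 with arrays left out. At 2 h one fit of 8 groups gave 4 in place of 0. In ANIT hepatocytes at 2 h the adjusted p-values of the authors' deposited table gave 1 in place of 0. For bile duct against hepatocytes in vehicle rats at 2 h (35 called) a 1.5-fold minimum gave 21, several-symbol probe sets gave 23, and arrays left out gave 30 to 35. At 6 h (6 called) quantile normalization gave 30, trend 16, one fit 11, a 1.5-fold minimum 3, the replicate block 1 by either number, and arrays left out 1 to 5. In ANIT rats at 2 h (9 called) quantile normalization gave 30, one fit 16, the replicate block 5, leaving out the arrays of small spread 25, and single arrays 6 to 17, while at 6 h (32 called) no alternative moved the count by over 1.5 times and single arrays gave 27 to 31. For time in vehicle bile duct (6 called) quantile normalization and the replicate block gave 0, probe sets above the median level 10, trend 19, one fit 20 and single arrays 1 to 11. In ANIT bile duct one fit gave 4 in place of 0. For time in vehicle hepatocytes (11 called) quantile normalization or subtraction of array medians gave 7, the replicate block 3, one fit or a 1.5-fold minimum 0, and single arrays 3 to 8. In ANIT hepatocytes (11 called) quantile normalization gave 6, one fit 3 and single arrays 7 to 11. For the interaction with capture at 6 h (1 called) quantile normalization, the replicate block, either covariate or several-symbol probe sets gave 0, one fit 2, array medians 3, the level filter 5, trend 7 and single arrays 0 to 6. For that with time in bile duct (1 called) quantile normalization, the mean of probe sets, either covariate, several-symbol probe sets or leaving out the arrays of small spread gave 0, trend 10, one fit 23 and single arrays 0 to 5. The hepatocyte marker covariate and the several-symbol probe sets were chosen after seeing the data.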
